A study of Mus musculus with 6 samples.

Results

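TRIM28-deficient, BORG-expressing D2.OR cells were set against parental D2.OR cells to find which genes still differed from the parental state once BORG-expressing cells also carried a guide RNA to TRIM28. D2.OR is a mouse mammary tumor line whose disseminated cells stay latent, BORG is a long noncoding RNA, and TRIM28 is a co-repressor protein that the edited cells were meant to lack. All cells were harvested after 7 days of 3D-culture on a reconstituted basement membrane (Cultrex). The members are 2 arrays titled BORG/sgTRIM28 and 2 arrays titled Empty, of 6 arrays in all, and 22180 genes of 41345 transcript clusters on the array. A gene was kept where the platform annotation gave its transcript cluster exactly 1 symbol, and where a gene had several such clusters the brightest one, averaged over all 6 arrays, stood for it.

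The BORG/sgTRIM28 cells expressed full-length mouse BORG and had received a lentivirus with SpCas9 and a guide RNA against TRIM28. The BORG cells, also with 2 arrays, expressed BORG without that guide, and the parental cells held an empty vector. Per the methods, BORG lines were selected with G418 as stable lines, the Cas9 lines with puromycin, and D2.OR cells had been made to express firefly luciferase. The labels do not say whether the BORG and parental cells carried a control guide, nor whether the edited line was a clone. The labels call the arrays of a group biological replicates without naming separate lines, so the p-values measure the spread between these arrays. Cells that express no BORG but carry the TRIM28 guide are not analysed here, so the addition of BORG and the loss of TRIM28 cannot be told apart in the comparison with parental cells. The BORG arrays are given beside each result for that reason.

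TRIM28, also called KAP1, is brought to DNA by zinc finger proteins with a KRAB domain, and there it gathers the histone methyltransferase SETDB1 and heterochromatin proteins. The complex is best known for silencing retroviral elements, for keeping methylation at imprinted genes in the early embryo, and for acting at clusters of zinc finger genes themselves. BORG was named as a transcript responsive to bone morphogenetic protein (BMP).

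As log2 signals, Trim28 itself read 9.50 and 9.53 in BORG/sgTRIM28 cells, 9.88 and 9.96 in BORG cells and 10.49 and 10.68 in parental cells. Both BORG/sgTRIM28 arrays lay below all others, and the log2 difference from parental cells was -1.07 with a standard error (SE) of 0.12 (adjusted p = 0.058 from limma). Much of that fall was already present in BORG cells, at -0.67 for BORG minus parental (adjusted p = 0.0271 from limma). BORG/sgTRIM28 minus BORG was -0.41 (adjusted p = 0.0911 from limma). A small insertion made by Cas9 need not remove the transcript, so the array is only a weak check of the label. The measured neighbours of Trim28 in the gene order of the reference (Zfp446, Slc27a5, Zbtb45, Chmp2a, Mzf1 and Vmn1r85) differed by between -0.28 and 0.22, and none was called. Of 25 measured genes of the TRIM28 co-repressor complex, Trim28 alone differed 2-fold.

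Most genes of BORG/sgTRIM28 cells read close to the parental level. The log2 difference lay within 0.5 for 96.86% of the 22180 genes, and 113 genes (0.51%) differed by 1 or more. Between the 2 arrays of one group, the same limit of 0.5 held 97.15% of genes in BORG/sgTRIM28, 92.89% in BORG and 97.41% in parental cells. These are differences of single arrays, while the comparison with parental cells is of means of 2 arrays, which vary less. The percentages are therefore not like measures, and their nearness does not show that the groups are alike. The root mean square difference over all transcript clusters was 0.299 between both BORG/sgTRIM28 arrays, 0.312 to 0.349 between a BORG/sgTRIM28 and a parental array and 0.286 between both parental arrays. An array of BORG/sgTRIM28 cells was farther from an array of BORG cells, at 0.479 to 0.559. In the same fit, 12.5% of genes passed an adjusted p of 0.05 in BORG/sgTRIM28 minus BORG (2777 genes) and 9.7% in BORG minus parental (2152 genes). These comparisons share arrays with the one described here.

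**Figure D1:**
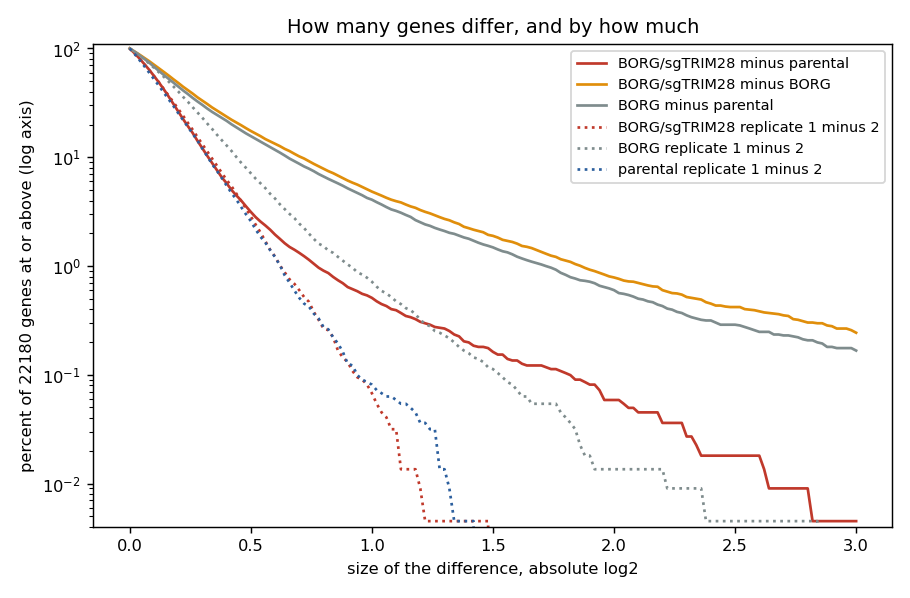
Percent of the 22180 genes (y axis, log scale) whose difference is at least the absolute log2 value on the x axis. Solid lines are differences of group means (2 arrays each) and dotted lines are differences between the 2 arrays of one group; beyond 1, the line of BORG/sgTRIM28 minus parental holds 0.51% of genes while the line of BORG/sgTRIM28 replicates holds 0.068% and that of parental replicates 0.081%.

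In BORG/sgTRIM28 against parental cells, limma called 15 genes higher (0.0676% of those tested) and 21 lower (0.0947%) at a p adjusted by Benjamini-Hochberg over all 41345 clusters of under 0.05, below called the adjusted threshold. A looser rule, the 2-fold threshold, took genes that differed 2-fold or more and whose p before adjustment was under 0.05, and it held 46 genes higher (0.207%) and 67 lower (0.302%). The unadjusted p alone held 852 genes higher (3.84%) and 955 lower (4.31%), or 625 and 1192 after median centring of the arrays. The adjusted calls rested on the pooled spread of all 6 arrays: 0 genes passed without either BORG/sgTRIM28 array or without either parental array (1087 and 1331, and 1143 and 1036 genes at an unadjusted p under 0.05), and 1 passed, Pde5a, without either BORG array (2299 genes at an unadjusted p under 0.05 in each case). Fitted and adjusted over the 22180 genes alone, 51 were higher and 84 lower, and these held all 36 genes called over the whole array. The log2 signals of those 36 genes on each array are in the plot of called genes.

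**Figure D2:**
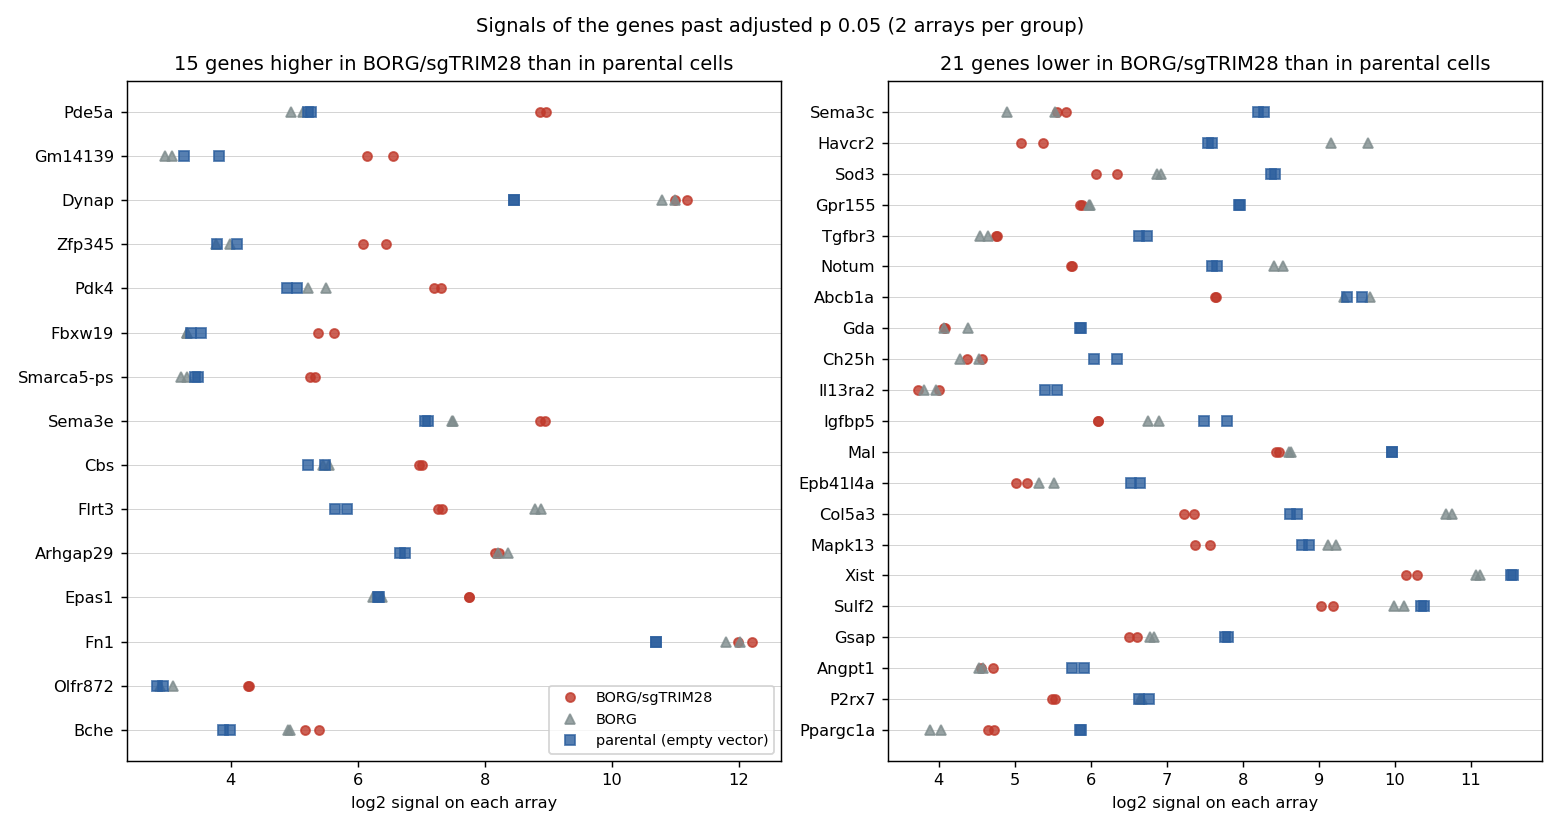
Log2 signal (x axis) on each array for the 15 raised and the 21 lowered genes that passed the adjusted threshold in BORG/sgTRIM28 against parental cells, in order of the size of the difference. Circles are BORG/sgTRIM28, triangles BORG and squares parental arrays, 2 each; the circles and squares of a gene never overlap, while the triangles sit with the squares for genes such as Pde5a, with the circles for Dynap or Sema3c, and beyond the squares for Havcr2, Notum and Col5a3.

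Pde5a, the phosphodiesterase that breaks down cyclic GMP, rose most. It read 8.97 and 8.87 in BORG/sgTRIM28, 5.14 and 4.96 in BORG and 5.22 and 5.26 in parental cells, so that only the edited cells were high. The log2 difference from parental cells was 3.68 (SE 0.12, 12.8-fold, adjusted p = 0.0028 from limma), against 3.87 from BORG cells (adjusted p = 0.000322) and -0.19 for BORG minus parental (adjusted p = 0.43). It was the only one of 24 measured cyclic nucleotide phosphodiesterase genes past either threshold, and the list's median difference was -0.04, beside 0.01 over all genes.

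Several further genes rose with BORG arrays near the parental level. Pdk4, the kinase that shuts pyruvate out of the mitochondrial oxidation route, read 7.21 and 7.31 in BORG/sgTRIM28, 5.51 and 5.22 in BORG and 4.89 and 5.05 in parental cells, a log2 difference of 2.29 from parental cells (SE 0.14, adjusted p = 0.0139 from limma). Cbs, which makes cystathionine from homocysteine and serine, read 6.97 and 7.02, 5.45 and 5.55, and 5.49 and 5.22 in the same order of groups and rose by 1.64. Epas1, the hypoxia-inducible factor HIF-2α, read 7.75 on both BORG/sgTRIM28 arrays, 6.38 and 6.24 in BORG and 6.33 on both parental arrays. Its rise of 1.42 (SE 0.11, adjusted p = 0.0244 from limma) stood beside a BORG minus parental difference of -0.02. Sema3e, a secreted guidance ligand of plexin D1, rose by 1.82 (8.95 and 8.86 in BORG/sgTRIM28, 7.50 and 7.48 in BORG, 7.07 and 7.11 in parental cells). For Pdk4 and Sema3e the BORG arrays lay slightly above both parental arrays.

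Of 30 measured genes of hypoxia and glycolysis, which include targets of hypoxia-inducible factors, 0 passed the adjusted threshold, and the list's median was 0.07. The carbonic anhydrase Car9 read 7.42 and 7.11 in BORG/sgTRIM28, 10.98 and 10.26 in BORG and 6.06 and 5.71 in parental cells. Its difference from parental cells was 1.38 (adjusted p = 0.215 from limma), and a second, dimmer cluster of the gene gave -0.01. The secreted hormone Stc1 read 4.20 and 4.83 in BORG/sgTRIM28, 11.27 and 9.89 in BORG and 6.00 and 6.24 in parental cells. Its difference from parental cells was -1.60 (adjusted p = 0.402 from limma), with the BORG arrays far above both other groups.

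Zfp345 and Gm14139, both on chromosome 2, rose in the edited cells with both other groups low. Zfp345, a zinc finger gene by its symbol, read 6.08 and 6.45 in BORG/sgTRIM28, 3.98 and 3.77 in BORG and 4.10 and 3.78 in parental cells, a log2 difference of 2.32 from parental cells (SE 0.19, adjusted p = 0.0244 from limma). Gm14139 read 6.55 and 6.15, 3.08 and 2.96, and 3.27 and 3.82 in the same order and rose by 2.81 (adjusted p = 0.0244). Gm14124 read 5.17 and 4.83, 3.59 and 3.18, and 3.49 and 3.41, a difference of 1.55 that missed the adjusted threshold (adjusted p = 0.0734 from limma). In the gene order of assembly GRCm38.p6 these 3 genes lie within 1 run of 6 measured genes, and the others of the run, Zfp120, Zfp937 and 3300002I08Rik, differed by -0.08, 0.12 and -0.11. This run and the 3 described next were singled out with their values seen.

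The promoters of these 3 genes are printed because they are nearly the same sequence. Each window covers 250 bases before to 50 after the annotated start, from RefSeq on GRCm38.p6: chr2:150485014-150485313 on the minus strand for Zfp345, chr2:150181505-150181804 on the plus strand for Gm14139 and chr2:150257267-150257566 on the plus strand for Gm14124. Capitals mark the longest run that all 3 share, of 48 bases.
Zfp345: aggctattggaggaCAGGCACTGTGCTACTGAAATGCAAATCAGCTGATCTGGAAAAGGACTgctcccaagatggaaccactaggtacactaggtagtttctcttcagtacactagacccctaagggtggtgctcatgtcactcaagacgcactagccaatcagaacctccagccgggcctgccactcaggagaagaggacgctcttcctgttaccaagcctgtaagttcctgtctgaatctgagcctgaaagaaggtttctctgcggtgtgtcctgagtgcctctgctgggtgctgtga
Gm14139: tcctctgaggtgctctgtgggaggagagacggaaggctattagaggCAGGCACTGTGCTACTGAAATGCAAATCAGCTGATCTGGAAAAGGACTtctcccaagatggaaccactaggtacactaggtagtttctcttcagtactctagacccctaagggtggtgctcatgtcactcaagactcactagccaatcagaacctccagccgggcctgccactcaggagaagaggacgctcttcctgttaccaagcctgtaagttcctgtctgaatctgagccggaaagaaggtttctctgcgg
Gm14124: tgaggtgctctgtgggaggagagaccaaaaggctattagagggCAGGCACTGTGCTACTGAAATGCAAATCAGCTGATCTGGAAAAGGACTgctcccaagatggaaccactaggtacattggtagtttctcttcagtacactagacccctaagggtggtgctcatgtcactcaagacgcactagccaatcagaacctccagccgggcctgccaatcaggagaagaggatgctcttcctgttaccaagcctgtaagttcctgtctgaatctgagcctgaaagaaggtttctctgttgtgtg
In local alignments, Zfp345 and Gm14139 were identical at 262 of 268 columns, Zfp345 and Gm14124 at 264 of 272 and Gm14139 and Gm14124 at 282 of 294. The shared run of 48 bases, searched on both strands, occurs in no other of 32851 promoters (3 promoters, 0.00913%). The run was taken from these 3 raised genes, and a near copy with a mismatch would not be counted. The promoters of Zfp120, Zfp937 and 3300002I08Rik were not aligned. Whether such a promoter is particular to the raised genes was therefore not tested. The 3 windows hold 4, 5 and 2 copies of the dinucleotide CG, for Zfp345, Gm14139 and Gm14124 in turn, where 43.6% of all promoters hold 5 or fewer and the median is 7. Whether the probes of Zfp345, Gm14139 and Gm14124 share sequence was not tested, and their signals may not be independent.

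Other runs of alike genes held raised members too. Smarca5-ps, a pseudogene of the chromatin remodeler Smarca5, read 5.34 and 5.25 in BORG/sgTRIM28, 3.22 and 3.32 in BORG and 3.48 and 3.45 in parental cells and rose by 1.83 (SE 0.11, adjusted p = 0.0121 from limma). It opens a stretch of chromosome 4 with many zinc finger genes, where 1 of 20 measured genes passed the adjusted threshold, 8 were higher and 0 lower at an unadjusted p under 0.05 (3.84% and 4.31% of all genes), and the median difference was 0.28. Zfp992 in that stretch read 8.60 and 8.24 in BORG/sgTRIM28, 4.28 and 5.34 in BORG and 6.67 and 6.43 in parental cells. Its difference of 1.87 from parental cells did not pass (adjusted p = 0.196 from limma), and the BORG arrays lay below both other groups. On chromosome 9, Fbxw19, of a family of F-box genes, read 5.38 and 5.64 in BORG/sgTRIM28, 3.32 on both BORG arrays and 3.37 and 3.54 in parental cells, and rose by 2.05 (adjusted p = 0.0156 from limma). It was the only one of 13 measured Fbxw genes of its run past that threshold, with a median of 0.03. Among 10 consecutive measured olfactory receptor genes elsewhere on chromosome 9, Olfr872 rose by 1.39 (4.28 and 4.29 in BORG/sgTRIM28, 3.10 and 2.90 in BORG, 2.84 and 2.94 in parental cells). The next genes of that run, Olfr39 and Olfr873, differed by 1.06 and 1.02 (adjusted p = 0.421 and 0.203 from limma). Members of such families can share probes, which was not tested. On all BORG and parental arrays Gm14139, Gm14124, Smarca5-ps, Fbxw19, Olfr872, Olfr39 and Olfr873 read below the array's lower quartile (3.87 to 3.91), no detection call was used here, and differences against so low a signal may understate the change.

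**Figure D3:**
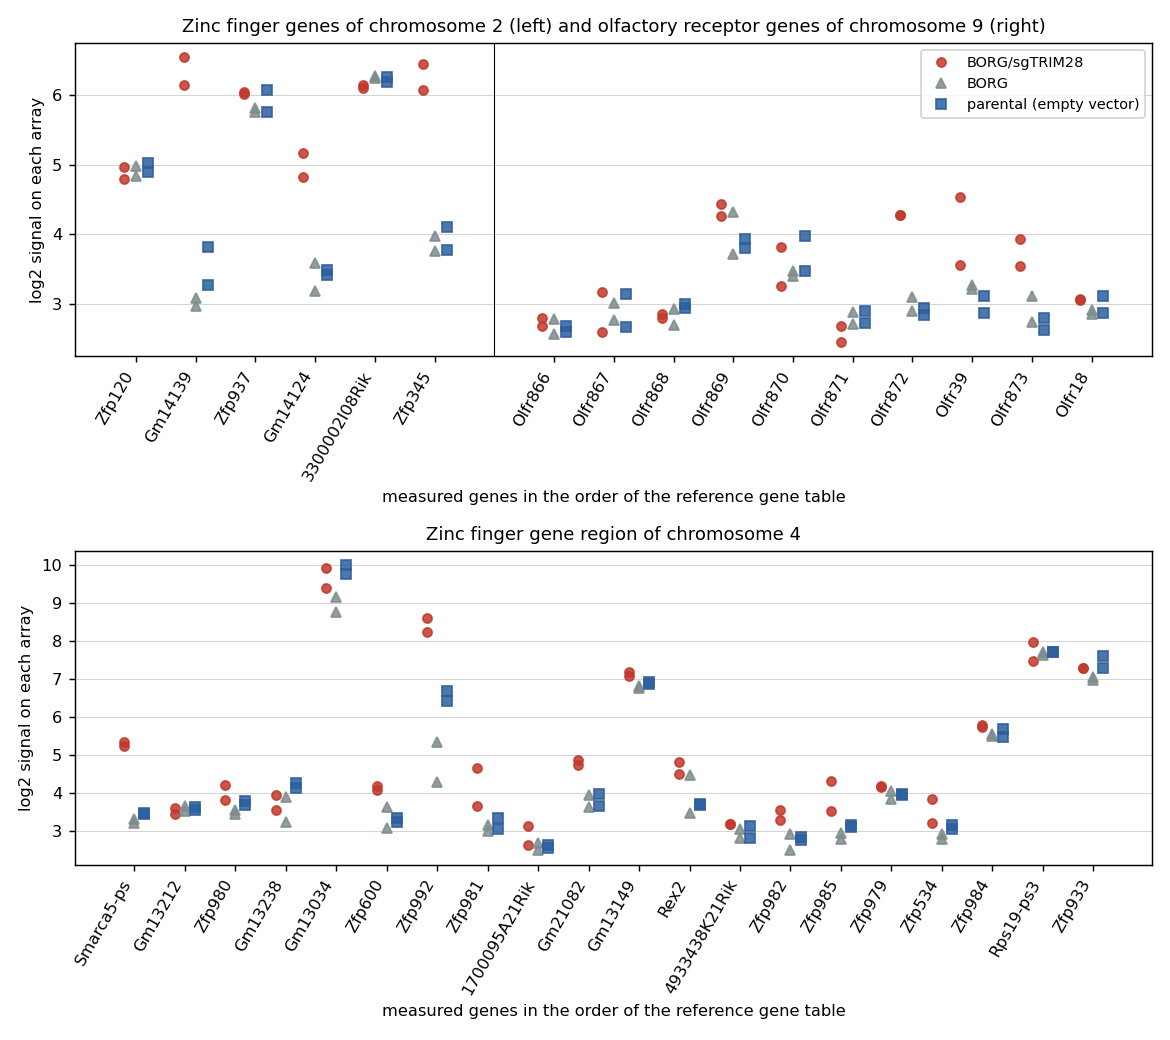
Log2 signal on each array (y axis) for measured genes in the order of the reference gene table (x axis, not to distance) in 3 runs of alike genes. Circles are BORG/sgTRIM28, triangles BORG and squares parental arrays; Gm14139, Gm14124 and Zfp345 of chromosome 2, Olfr872 of chromosome 9 and Smarca5-ps and Zfp992 of chromosome 4 have both circles above every other point, while Zfp937, Olfr18 and Rps19-ps3 between or beside them do not.

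Over all 336 measured genes with a Zfp symbol, 1 was higher and 0 were lower at an adjusted p under 0.05, and 3 were higher and 0 lower at 2-fold (Zfp345, Zfp992 and Zfp945). Zfp945 read 8.85 and 8.90 in BORG/sgTRIM28, 5.99 and 6.71 in BORG and 7.60 and 7.82 in parental cells, a difference of 1.17 (adjusted p = 0.235 from limma). At an unadjusted p under 0.05, 35 Zfp genes were higher and 6 lower, beside 3.84% and 4.31% of all genes, and the median difference was 0.04. Of 46 measured imprinted genes none passed the adjusted threshold, and Peg3, a zinc finger gene expressed from the paternal allele, passed the 2-fold one. Peg3 read 10.26 and 10.36 in BORG/sgTRIM28, 7.61 and 7.91 in BORG and 9.17 and 9.30 in parental cells, 1.08 above parental cells (adjusted p = 0.0879 from limma) and 2.56 above BORG cells (adjusted p = 0.00069). For Zfp992, Zfp945 and Peg3 the 3 groups were in the same order, with BORG lowest and BORG/sgTRIM28 highest. Of 37 germline and early embryo genes, 1 was higher at an unadjusted p under 0.05 and none was past the other thresholds.

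A further group of raised genes was also called higher in BORG than in parental cells. Both comparisons use the same 2 parental arrays, so part of that overlap may be built in. Dynap, a transmembrane protein linked to AKT signaling, read 11.18 and 11.00 in BORG/sgTRIM28, 10.79 and 10.99 in BORG and 8.45 and 8.46 in parental cells. It rose by 2.63 against parental cells (SE 0.13, adjusted p = 0.0109 from limma) and differed from BORG cells by 0.20 (95% interval -0.11 to 0.51). Fn1, the matrix glycoprotein fibronectin, read 12.20 and 11.98, 12.02 and 11.80, and 10.69 on both parental arrays, a rise of 1.40. Arhgap29, which turns off RhoA, rose by 1.48 (8.16 and 8.23 in BORG/sgTRIM28, 8.37 and 8.20 in BORG, 6.75 and 6.67 in parental cells). Bche, the plasma esterase butyrylcholinesterase, rose by 1.34, with BORG 0.98 above parental cells and both BORG/sgTRIM28 arrays (5.39 and 5.17) above both BORG arrays (4.91 and 4.94). Flrt3, an adhesion protein that interacts with fibroblast growth factor receptors, lay between: it read 7.27 and 7.32 in BORG/sgTRIM28, 8.89 and 8.79 in BORG and 5.65 and 5.83 in parental cells. It remained 1.55 above parental cells (adjusted p = 0.0244 from limma) and differed by -1.54 from BORG cells (adjusted p = 0.00175).

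Many of the genes that fell passed the adjusted threshold in BORG minus parental too, in the same direction. Of all genes, 9.7% passed it in either direction. The same 2 parental arrays enter both comparisons, and a deviation of those arrays would move both the same way. Part of the overlap may thus be built in. Sema3c, a secreted class 3 semaphorin, read 5.68 and 5.56 in BORG/sgTRIM28, 4.91 and 5.53 in BORG and 8.20 and 8.28 in parental cells, a fall of 2.62 on the log2 scale (6.14-fold, SE 0.21, adjusted p = 0.0244 from limma). Tgfbr3, the co-receptor betaglycan that presents transforming growth factor-β (TGF-β), read 4.77 and 4.75 in BORG/sgTRIM28, 4.65 and 4.55 in BORG and 6.63 and 6.74 in parental cells, and fell by 1.92 (adjusted p = 0.0121). Gpr155, a lysosomal cholesterol-sensing membrane protein, fell by 2.08, with 5.85 and 5.88 in BORG/sgTRIM28, 5.98 on both BORG arrays and 7.96 and 7.95 in parental cells. For these genes every BORG/sgTRIM28 and BORG array lay below every parental array. Dimmer further clusters of Gpr155 gave differences of -0.06 and 0.06.

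A group of smaller falls was also called in BORG minus parental, given in brackets, with the same parental arrays in both comparisons. The guanine deaminase gene Gda differed by -1.79 (-1.64), Ch25h, the cholesterol 25-hydroxylase, by -1.72 (-1.79), and Il13ra2, a decoy receptor for interleukin 13, by -1.62 (-1.60). The membrane-raft protein gene Mal differed by -1.51 (-1.34), Epb41l4a, a FERM domain gene, by -1.51 (-1.18), Gsap, the gene of γ-secretase activating protein, by -1.23 (-0.97), and Angpt1, the angiopoietin ligand of the receptor TIE2, by -1.20 (-1.27). Second, dimmer clusters of Ch25h and Angpt1 differed by 0.07 and -0.07, so those falls were seen by 1 cluster each. The adjusted p of these 7 genes ran up to 0.0459 in limma, for Angpt1, which also missed the threshold when all clusters of a gene were averaged. Il13ra2 read 4.01 and 3.73 in BORG/sgTRIM28 and 3.97 and 3.80 in BORG cells. In the same order, Gda read 4.07 and 4.08, and 4.07 and 4.39, and Ch25h 4.37 and 4.57, and 4.52 and 4.28. These signals lie near the lower quartile of those arrays (3.87 to 3.93), and no detection call was used. Falls to so low a signal may understate the change in both groups.

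Ppargc1a, the co-activator of mitochondrial genes PGC-1α, read 4.65 and 4.73 in BORG/sgTRIM28, 3.88 and 4.03 in BORG and 5.87 on both parental arrays. Its difference was -1.18 against parental cells (adjusted p = 0.0368 from limma), beside -1.91 for BORG minus parental, and BORG/sgTRIM28 cells stood 0.73 above BORG cells (adjusted p = 0.0153). With Pdk4, it was one of the 2 members called among 29 measured genes of pyruvate and fatty acid oxidation, 1 in each direction. Sod3, the extracellular superoxide dismutase, read 6.07 and 6.34 in BORG/sgTRIM28, 6.93 and 6.87 in BORG and 8.42 and 8.37 in parental cells. It fell by 2.19 (SE 0.13, adjusted p = 0.0121 from limma) and differed by -0.69 from BORG cells (adjusted p = 0.0284). Igfbp5, a binding protein of insulin-like growth factors, likewise fell by 1.54 against parental cells and differed by -0.73 from BORG cells (adjusted p = 0.0297). Of 29 measured antioxidant genes, Sod3 alone passed the adjusted threshold.

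Other genes were lower in BORG/sgTRIM28 cells while BORG cells lay within 0.5 of parental cells. Abcb1a, the drug efflux pump P-glycoprotein, read 7.64 and 7.63 in BORG/sgTRIM28, 9.34 and 9.67 in BORG and 9.37 and 9.56 in parental cells. It fell by 1.83 against parental cells (SE 0.15, adjusted p = 0.0244 from limma), and BORG minus parental was 0.04. P2rx7, an ATP-gated ion channel, read 5.53 and 5.49, 6.65 and 6.67, and 6.63 and 6.77 in the same order and fell by 1.19. Mapk13, the p38δ kinase, read 7.56 and 7.37, 9.23 and 9.12, and 8.88 and 8.78, and fell by 1.37. Sulf2, an extracellular heparan 6-O-endosulfatase, fell by 1.26 and Xist, the noncoding RNA that coats the inactive X chromosome, by 1.32. Xist read 10.28 and 10.14 in BORG/sgTRIM28, 11.06 and 11.12 in BORG and 11.52 and 11.55 in parental cells, with the BORG arrays between the others.

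Havcr2, Col5a3 and Notum fell against parental cells, while BORG cells stood above parental cells at the adjusted threshold. Havcr2, the immune checkpoint receptor TIM-3, read 5.09 and 5.37 in BORG/sgTRIM28, 9.64 and 9.16 in BORG and 7.54 and 7.60 in parental cells. It fell by 2.34 against parental cells (SE 0.19, adjusted p = 0.0244 from limma) and differed by -4.17 from BORG cells, while BORG stood 1.83 above parental cells (adjusted p = 0.00596). Col5a3, a chain of type V collagen, read 7.35 and 7.23, 10.75 and 10.68, and 8.71 and 8.62 in the same order and fell by 1.37, with BORG 2.05 above parental cells. Notum, a secreted enzyme that removes the lipid from Wnt proteins, read 5.75 and 5.74, 8.53 and 8.41, and 7.67 and 7.59, and fell by 1.89. A dimmer cluster of Notum gave -0.27. Havcr2 was the only one of 24 immune checkpoint genes past either threshold.

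Of 58 measured collagens and matrix glycoproteins, Fn1 rose and Col5a3 fell at the adjusted threshold, 3 were higher and 2 lower at 2-fold, and the median was 0.04. Of 62 measured genes of epithelial-mesenchymal transition (EMT), 1 rose and 2 fell (Fn1, Col5a3 and Tgfbr3), and 2 were higher and 4 lower at 2-fold. At an unadjusted p under 0.05, 5 EMT genes were higher and 16 lower, with a median of -0.06. Over all genes, 0.207% were higher and 0.302% lower at 2-fold, and 3.84% and 4.31% at the unadjusted p. Inhba, the activin A subunit, read 9.08 and 9.45 in BORG/sgTRIM28, 11.05 and 10.90 in BORG and 10.72 and 10.76 in parental cells, a difference of -1.47 from parental cells (adjusted p = 0.0529 from limma). Among 42 TGF-β and BMP ligands and receptors, Tgfbr3 fell and none rose, and Inhba and Ltbp2, a matrix protein of the latent TGF-β binding family, were lower at the 2-fold threshold. Of 14 measured targets of BMP signaling none passed the adjusted threshold. The HLH inhibitor Id2 read 10.95 and 11.09 in BORG/sgTRIM28, 9.11 and 8.90 in BORG and 9.94 and 9.89 in parental cells, a difference of 1.10 (adjusted p = 0.0699 from limma). The matrix glycoprotein Tnxb and the metalloprotease Adamts7 differed by -1.20 and -1.16 (adjusted p = 0.0858 and 0.261 from limma).

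None of 35 measured cytokines and chemokines passed the adjusted threshold. At 2-fold, 0 were higher and 4 lower, beside 0.207% and 0.302% of all genes. At an unadjusted p under 0.05, 3 were higher and 8 lower, beside 3.84% and 4.31% of all genes. Ccl2, a monocyte attractant, read 6.81 and 6.75 in BORG/sgTRIM28, 6.31 and 6.82 in BORG and 8.68 and 8.32 in parental cells, a difference of -1.72 from parental cells (adjusted p = 0.0769 from limma). Il6 read 7.73 and 7.89, 7.20 and 7.71, and 8.86 and 8.89 in the same order, and Il1a 7.30 and 7.41, 7.98 and 8.54, and 8.70 and 8.68. In each of these genes both BORG/sgTRIM28 arrays lay below both parental arrays. The other member past 2-fold was the chemokine Ccl7, at -1.06. The death receptor gene Fas, 1 of 29 measured p53 targets, read 4.46 and 4.82, 4.36 and 4.91, and 6.16 and 5.99, a difference of -1.44 from parental cells (adjusted p = 0.136 from limma), and was the only one of that list past the 2-fold threshold.

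Interferon-stimulated genes had the highest median difference of the lists, 0.30 over 48 measured members, beside 0.01 over all genes. None passed the adjusted threshold, 1 was past 2-fold, and 14 were higher and 2 lower at an unadjusted p under 0.05, beside 3.84% and 4.31% of all genes. Stat2, which carries the signal of type I interferon to the nucleus, read 9.50 and 9.54 in BORG/sgTRIM28, 7.77 and 8.32 in BORG and 8.40 and 8.41 in parental cells, 1.12 above parental cells (adjusted p = 0.169 from limma). The list's median for BORG minus parental was -0.21.

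**Figure D4:**
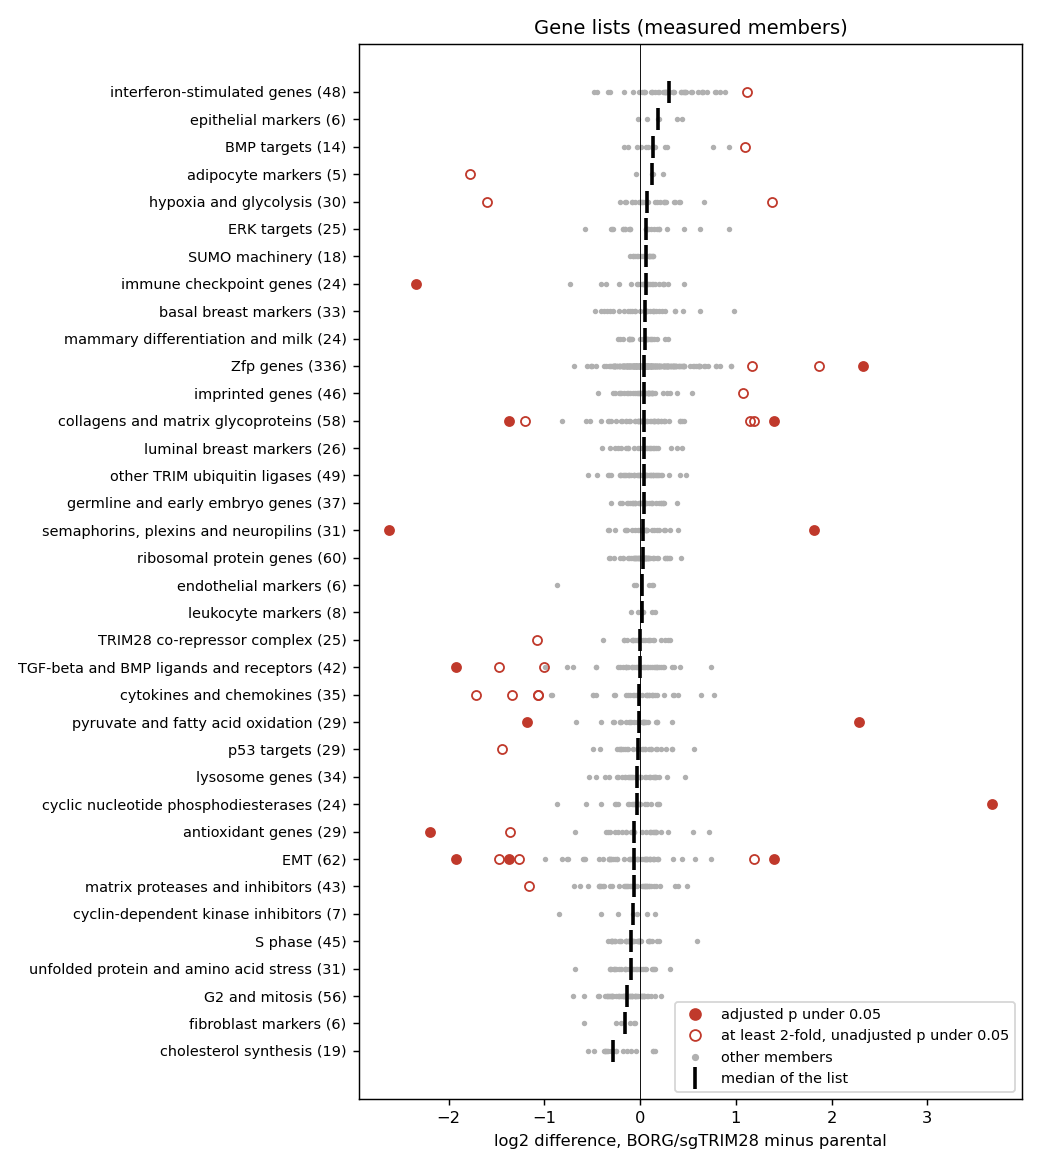
Log2 difference of each measured member (x axis, BORG/sgTRIM28 minus parental) of 36 gene lists, with the number of measured members in brackets and the lists ordered by their median (black bar). Filled circles passed an adjusted p of 0.05, open circles 2-fold with an unadjusted p under 0.05; most lists are centred within 0.1 of 0, with interferon-stimulated genes highest at 0.30 and cholesterol synthesis lowest at -0.28.

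Of 45 measured S phase genes none passed the adjusted or the 2-fold threshold, and their median was -0.10, where BORG minus parental gave -0.78. Of 56 genes of G2 and mitosis none passed either, 0 were higher and 9 lower at an unadjusted p under 0.05 (3.84% and 4.31% of all genes), and the median was -0.14. The cell cycle inhibitor Cdkn1a (p21) read 9.22 and 9.41 in BORG/sgTRIM28, 9.22 and 10.24 in BORG and 9.28 and 9.41 in parental cells, a difference of -0.03 with a 95% interval of -0.81 to 0.75. Gadd45a shares its transcript cluster with a second symbol and was not described. The 2 lists with the widest BORG minus parental medians, cholesterol synthesis at 1.20 (19 genes) and ERK targets at 1.11 (25 genes), had medians of -0.28 and 0.06 in BORG/sgTRIM28 minus parental, with 0 members past the adjusted or the 2-fold threshold. Basal breast markers (33 genes) and luminal breast markers (26 genes) had medians of 0.05 and 0.04, also with 0 members past them. No member passed either threshold among 60 ribosomal protein genes, 49 other TRIM ubiquitin ligases, 34 lysosome genes, 31 genes of unfolded protein or amino acid stress, 24 genes of mammary differentiation and milk, 18 genes of the SUMO machinery and 7 cyclin-dependent kinase inhibitors. Over all genes, only 0.0676% were higher and 0.0947% lower at the adjusted threshold, and 0.207% and 0.302% at 2-fold. In lists this small, having no member past a threshold is near those shares and sets no list apart. The same limit applies to every list described here without a called member.

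Epithelial markers of the tumor line were read beside those of other cells. Krt8 read 9.70 and 9.71 in BORG/sgTRIM28, 11.09 and 10.81 in BORG and 9.55 and 9.73 in parental cells, and Epcam read 4.71 and 5.01, 4.84 and 4.74, and 4.68 on both parental arrays. Epcam thus lay below the array medians (5.18 to 5.24). At an unadjusted p under 0.05, 2 of 6 epithelial markers were higher and 0 lower, beside 3.84% and 4.31% of all genes. Cdh1 had the largest difference of the 6, at 0.435. None of 6 epithelial, 8 leukocyte, 6 fibroblast, 6 endothelial and 5 adipocyte markers passed the adjusted threshold, and their median differences were 0.19, 0.02, -0.16, 0.02 and 0.12. Fabp4, a fatty acid binding protein of adipocytes and macrophages, read 4.45 and 4.67 in BORG/sgTRIM28, 5.93 and 6.38 in BORG and 6.59 and 6.07 in parental cells, a difference of -1.77 from parental cells (adjusted p = 0.0908 from limma), while the other 4 adipocyte markers differed by between -0.04 and 0.24. All samples were cultures of the D2.OR line, and no count of other cell types was made. In such bulk arrays, fewer cells of the line that express a gene and less RNA per cell cannot be told apart.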

How the data were processed

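Total RNA of 6 samples was hybridised to the Affymetrix Mouse Gene 2.0 ST GeneChip. For each transcript cluster the authors deposited a log2 signal, made with Affymetrix Expression Console and Transcriptome Analysis Console. The summarization method and the versions were not given in the sources used here. Array medians lay between 5.18 and 5.24, so no further scaling was done, and precision is limited by having 2 arrays a group. Of 41345 clusters, 23521 carry 1 symbol in the platform annotation, 1820 several and 16004 none; 23328 clusters had an Entrez ID in the GRCm38.p6 gene table, and 0 of their symbols differed. limma 3.58.1 in R 4.3.3 fitted 3 group means over all 6 arrays (residual df 3, prior df 3.04), two-sided. Intervals are at 95%. Named are the up to 25 largest rises and falls with an established symbol that passed, up to 3 members of each list past 2-fold, Trim28 with its neighbours, and Cdkn1a. Members and lists were chosen with earlier results of these data known. A list of KRAB zinc finger genes was not made, because no protein table was used here. The fit was tested on simulated data. Alternatives were a replicate block, fewer arrays, other scalings, filters and cluster choices, a variance trend and the methods' t-test.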

Additional observations from a re-analysis of the deposited data

How the results depend on the processing

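Adjusted calls depended on the arrays and the test, while the 2-fold counts (46 higher, 67 lower) ran from 31 to 61 and from 57 to 74 over all settings. The low ends, 31 and 57, came from clusters above the median signal, where only 12195 genes were tested. Over all 22180 genes the lowest counts were 40 higher (the methods' t-test) and 61 lower (the mean of all clusters of a gene). In the fit reported, every gene that differed 2-fold also had an unadjusted p under 0.05, so that rule acted as a fold cut alone. The replicate block, the 4 arrays alone, the variance trend, the genes of the rule alone and leaving out a BORG array do not alter the log2 differences. Their 2-fold counts of 46 and 67 are thus no separate check. Against parental cells, 15 genes were higher and 21 lower in the fit reported, with 2777 called in BORG/sgTRIM28 minus BORG and 2152 in BORG minus parental. The replicate numbers did not pair the arrays (correlations of deviations -0.04, -0.01 and 0.04), and with the replicate block 1 gene was higher and 0 lower (1545 at an unadjusted p under 0.05). With only the 4 arrays of the groups compared, 1 was higher and 0 lower, with 1478 and 1118 called in the other comparisons. The methods' t-test called 0 genes in all 3 after adjustment (2752 at an unadjusted p under 0.05 against parental cells, 4313 and 4156 in the others). A variance trend gave 37 higher and 44 lower, the genes of the rule alone 51 and 84 (4319 and 3732 in the other comparisons), and the mean of all clusters of a gene 53 and 80 (4271 and 3678). Clusters above the median signal gave 3332 in BORG minus parental. Leaving out 1 array gave 0 to 1 genes higher, 0 to 0 lower, 585 to 2947 in BORG/sgTRIM28 minus BORG and 345 to 2413 in BORG minus parental. It gave 0 without either BORG/sgTRIM28 or either parental array, and Pde5a alone without either BORG array. For BORG/sgTRIM28 minus parental, the fit without either BORG array gave the same values as the fit of only the 4 arrays. A group left with 1 array adds no spread, so these are not separate checks. Leaving out an array also leaves the fit with fewer residual df, and no other cause was tested. The 34 named called genes kept their direction in every setting that tested them (25 of 34 for clusters above the median signal). Uncalled values that changed sign were Cdkn1a (-0.13 to 0.069), Chmp2a (-0.063 to 0.022), Slc27a5 (-0.0082 to 0.30) and Vmn1r85 (-0.27 to 0.31) when 1 array was left out, and Vmn1r85 (-0.013) with median centring. The median differences of the gene lists were also recomputed under the other settings. Of these values, 386 stayed within the spread between arrays of a group and 46 moved beyond it.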

Other observations

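Beyond the 22180 genes, 14 transcript clusters passed the adjusted threshold of limma in BORG/sgTRIM28 against parental cells. A further cluster of Zfp979, of the chromosome 4 stretch of zinc finger genes, read 5.50 and 6.10 in BORG/sgTRIM28, 3.12 and 3.20 in BORG and 3.16 and 3.02 in parental cells, a log2 difference of 2.71 (adjusted p = 0.0244), while the cluster that stands for the gene differed by 0.20. Of the others, 2 clusters with several symbols were higher by 3.28 and 1.53. Among clusters with no symbol in the table used here, 2 were higher (2.63 and 2.58) and 9 were lower, by between -1.34 and -2.01.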
